A study of Mus musculus with 4 samples.

Results

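The genes described here are 49 markers of DNA replication and mitosis, given as a list of symbols and read from the deposited transcript files of C2C12 cells. They are 24 S-phase genes and 25 G2/M genes, the latter transcribed late in the cycle and used in mitosis, of 55416 genes in the files. Each symbol matched 1 gene, and all 49 passed the filter for testing. C2C12 is a line of mouse myoblasts, muscle precursors that divide in serum and can be made to fuse into fibres. Cultures were transfected with 3 µg of DNA for wild-type lamin A (2 libraries) or for K97E lamin A, which the series' design text calls a DCM mutant (2 libraries) and collected after 24 h. Lamin A builds the filament mesh under the nuclear envelope. The titles of the K97E libraries read C1C12, while their characteristics give C2C12. Both groups went through Lipofectamine 2000 transfection with a lamin A construct in serum-free medium. The share of cells that took up DNA is not given, and untransfected cells were not analysed here. The labels call the libraries biological replicates without saying whether each was a separate culture. The p-values thus reflect only how far these libraries differ from each other, and that spread may be technical.

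A dividing cell licenses its replication origins in G1 by loading the MCM helicase, copies its DNA in S phase and then builds a spindle to separate the copies in mitosis. The genes for these steps are switched on in 2 waves. E2F factors drive the wave at the G1/S boundary. Complexes around the MuvB core, acting with B-Myb and FoxM1, drive the wave in G2 and mitosis. Myoblasts must leave the cycle before they fuse, so these transcripts are high in growing C2C12 cells and low in muscle fibres. In a bulk culture, fewer cells in a phase and less RNA per cell in that phase cannot be told apart.

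No S-phase or G2/M gene passed the test between K97E and wild-type lamin A, a limma adjusted p under 0.05 that 0.00613% of all 16304 tested genes reached. The median log2 difference between K97E and wild type was 0.08 for the S-phase genes and 0.02 for the G2/M genes. Over all tested genes it was -0.0017. The S-phase median was larger, 0.11, between replicates 2 and replicates 1, and 40 other replication genes had a median of 0.0007 between K97E and wild type. The G2/M genes differed more along another pairing of the libraries, which crosses both the groups and the replicate numbers. G2/M genes were high in wild-type replicate 2 and K97E replicate 1 and low in wild-type replicate 1 and K97E replicate 2, and the median difference between these pairs of libraries was 0.21 on the log2 scale. S-phase genes followed another order, lowest in wild-type replicate 1 and highest in K97E replicate 2.

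The 2 lists also differed in their promoter motifs, which are read from the genome and not from these libraries. RefSeq promoter windows of GRCm38.p6, 250 bases before to 50 bases after the start, were matched by symbol for 19 of 24 S-phase and 20 of 25 G2/M genes. The CHR element, the cell cycle gene homology region contacted by MuvB complexes, was searched as TTTGAA or TTCGAA on both strands, and was found in 15 of the 20 G2/M genes (75%) and 4 of the 19 S-phase genes (21.1%). It occurred in 21.7% of all 27025 genes with a window, and in 16.9% of the tested genes with one. The CCAAT box of NF-Y was searched as CCAAT on both strands. It was found in 17 G2/M (85%) and 12 S-phase genes (63.2%), against 41.1% of all genes and 43.8% of the tested genes. E2F sites were searched as TTTCCCGC, TTTCGCGC, TTTGCCGC or TTTGGCGC on both strands with overlapping matches allowed. They were found in 8 S-phase genes (42.1%) and 1 G2/M gene, Cdk1 (5.0%), against 2.6% of all genes and 4.7% of the tested genes. A match describes these letters in this window and does not show that a factor bound there. CHR and CCAAT occurred together in 15 G2/M genes (75%), 3 S-phase genes (15.8%), 8.61% of all genes and 7.29% of the tested genes.

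The stretches below are the 150 bases before the start of the most abundant G2/M genes with both CHR and CCAAT in that stretch and of the most abundant S-phase genes with an E2F site there, among genes with a single start-site window. Prc1, which has both motifs and is more abundant than Mki67, has 2 windows and is not shown. The stretches are shown as examples of these motifs. Each is read 5′ to 3′ on the strand of the gene. Capitals mark, on either strand, CHR and CCAAT matches in the G2/M genes and E2F matches in the S-phase genes. CCAAT also occurs in the Mcm6, Mcm5 and Pola1 stretches but is not capitalised there. The G2/M genes are Top2a (chr11:99024190-99024339, minus strand), Cdc20 (chr4:118437344-118437493, minus strand) and Mki67 (chr7:135716380-135716529, minus strand). The S-phase genes are Mcm6 (chr1:128359706-128359855, minus strand), Mcm5 (chr8:75109359-75109508, plus strand) and Pola1 (chrX:93632156-93632305, minus strand), all on GRCm38.p6.
Top2a: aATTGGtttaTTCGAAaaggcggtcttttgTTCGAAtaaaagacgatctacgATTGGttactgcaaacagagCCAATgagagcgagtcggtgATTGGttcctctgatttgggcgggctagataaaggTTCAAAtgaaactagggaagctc
Cdc20: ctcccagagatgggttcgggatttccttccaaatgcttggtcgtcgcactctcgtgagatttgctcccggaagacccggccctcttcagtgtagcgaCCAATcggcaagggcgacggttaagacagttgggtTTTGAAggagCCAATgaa
Mki67: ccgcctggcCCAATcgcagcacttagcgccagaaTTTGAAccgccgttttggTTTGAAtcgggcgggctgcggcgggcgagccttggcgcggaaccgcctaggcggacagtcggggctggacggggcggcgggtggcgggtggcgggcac
Mcm6: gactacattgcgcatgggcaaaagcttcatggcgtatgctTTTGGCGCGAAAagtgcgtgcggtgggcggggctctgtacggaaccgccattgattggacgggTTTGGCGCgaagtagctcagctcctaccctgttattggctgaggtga
Mcm5: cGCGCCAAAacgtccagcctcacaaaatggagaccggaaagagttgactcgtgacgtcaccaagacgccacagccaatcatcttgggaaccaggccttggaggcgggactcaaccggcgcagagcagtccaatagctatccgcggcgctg
Pola1: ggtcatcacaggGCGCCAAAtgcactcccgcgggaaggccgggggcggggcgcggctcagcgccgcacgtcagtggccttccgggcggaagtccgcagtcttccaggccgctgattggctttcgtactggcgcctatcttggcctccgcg

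CHR matches in the G2/M genes clustered at the start site. Of 23 matches, 15 lay between position -60 and the end of the window at +50, in 14 genes, and the median position was -18. A Prc1 site that lies in both of its windows is counted for each, so these are 22 distinct sites, 14 of them in that interval. E2F matches in the S-phase genes had a median of -110, near the middle of the window, and this median alone shows no preferred position. They ranged from -185 to 39, with matches past the start in Cdt1, Mcm3 and Mcm7. Overlapping matches in Mcm5 and Mcm6 are counted separately. Positions over the windows of all genes were not computed for comparison. The G2/M genes with a window but no CHR match were Ccnb1, Birc5, Mad2l1, Cenpe and Nusap1.

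**Figure D1:**
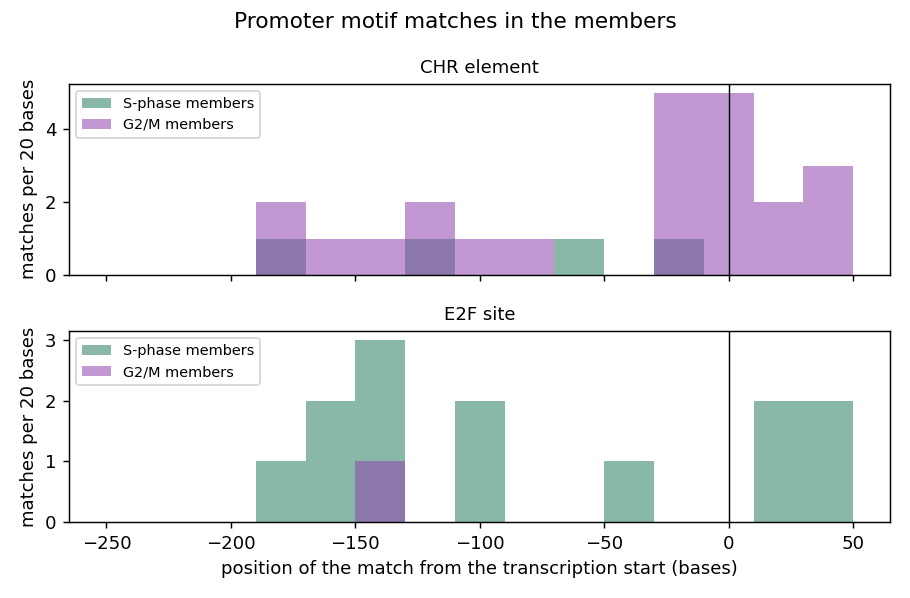
Positions of CHR element matches (upper panel) and E2F site matches (lower panel) in the RefSeq promoter windows of the 19 S-phase and 20 G2/M genes that had one, in bases from the transcription start (vertical line), as the number of matches in bins of 20 bases. CHR matches of G2/M genes pile up around the start with a median of -18. E2F matches of S-phase genes have a median of -110, near the middle of the window, and a single G2/M match is seen.

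Levels are given in TPM, a unit of transcript abundance that corrects for transcript length and sums to 1000000 in each library. The coverage in the files corresponded to between 89600000 (wild-type replicate 1) and 115600000 (K97E replicate 1) reads of 100 bases, and 14463 to 14684 genes reached 1 TPM in a library. Every one of the 49 genes rested on at least 994 estimated reads in each library. Of 9 myoblast markers in the files all were measured, with Des at 384 to 467 TPM, Myf5 at 41.5 to 47.8 TPM and Myod1 at 4.56 to 4.96 TPM. Markers of muscle differentiation summed to 11.5, 17.4, 12.7 and 12 TPM in wild-type replicates 1 and 2 and K97E replicates 1 and 2 (11 genes), with myogenin, Myog, at or below 0.0958 TPM. Markers of leukocytes summed to 5.01 to 7.86 TPM over 8 genes and of epithelium to 0.192 to 0.393 TPM over 5 genes. Endothelial markers summed to 21.0 to 24.9 TPM and fibroblast markers to 319 to 349.9 TPM over 5 genes each.

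The most abundant S-phase transcript was Pcna, with a mean of 199 TPM over the 4 libraries, and the least abundant Cdc6, with 9.48 TPM. G2/M levels were higher on the whole, from Top2a at 205 TPM to Cenpf at 23.1 TPM. The median G2/M gene stood at 75.1 to 97.6 TPM and the median S-phase gene at 31.1 to 35.7 TPM, depending on the library. Summed over their members, S-phase transcripts made up 1132, 1230.2, 1286 and 1318 TPM and G2/M transcripts 2028, 2289, 2580.0 and 2056 TPM, in the order wild-type replicates 1 and 2, K97E replicates 1 and 2, which is the order used for all values below. The S-phase sum was highest in K97E replicate 2 and the G2/M sum in K97E replicate 1.

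**Figure D2:**
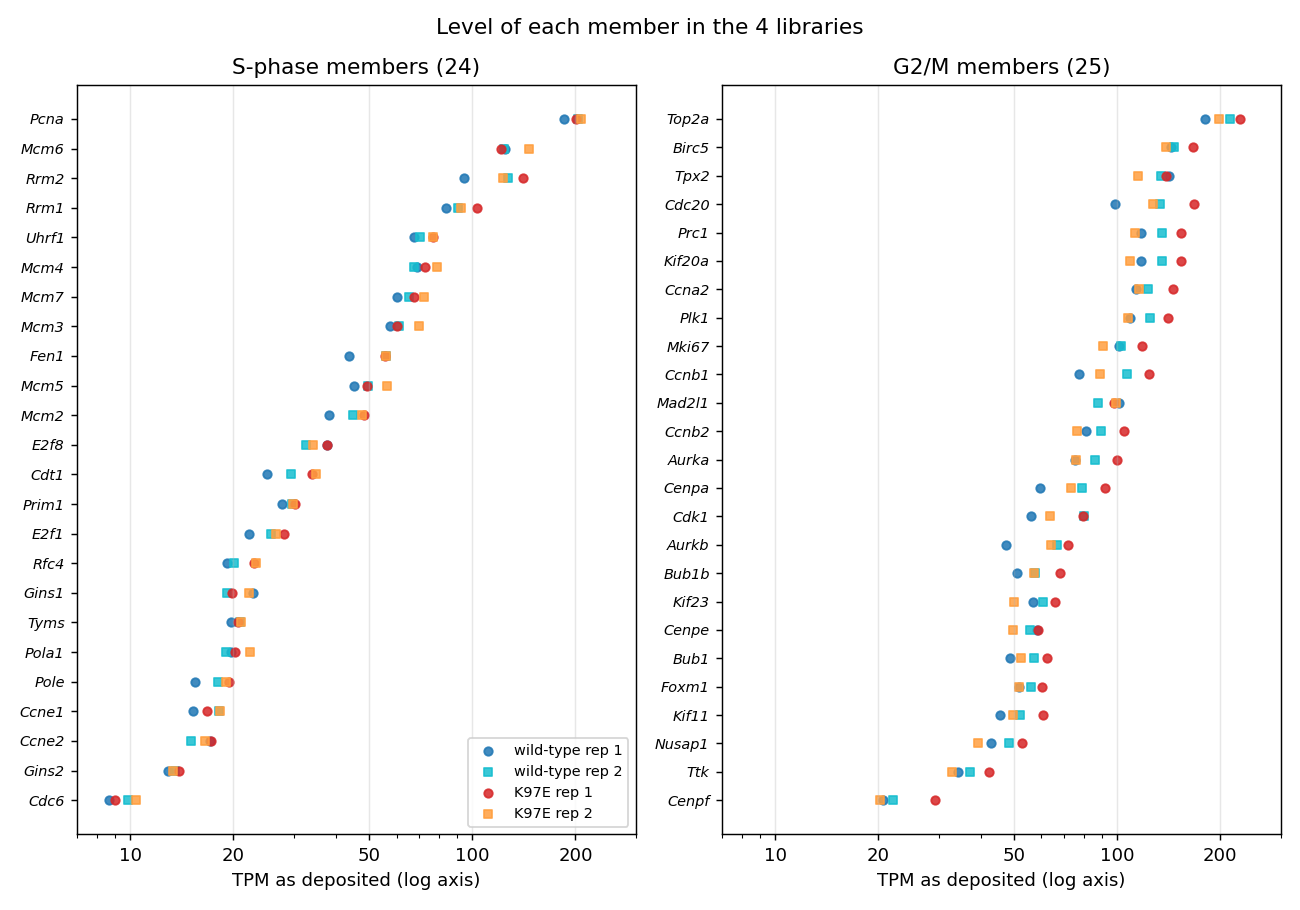
TPM as deposited (log axis) of each S-phase gene (left) and G2/M gene (right) in the 4 libraries, with genes ordered by mean level. Points of K97E replicate 1 (red circles) lie at the right end for most G2/M genes, for example Cdc20 at 167 TPM, whereas K97E replicate 2 (orange squares) lies at the right for the MCM genes, for example Mcm6 at 147 TPM.

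Genes that license and fire origins were tested as 10 members, and none passed. Mcm2 to Mcm7 form the ring-shaped helicase that is loaded at origins with 1 copy of each subunit, yet their transcripts differed in level by more than 2-fold. Mcm6 was the most abundant, at 124, 123, 121 and 147 TPM. K97E replicate 2 was the high library and the other 3 lay between 121 and 124 TPM. Mcm4 stood at 69.0, 67.5, 72.9 and 78.6 TPM and Mcm7 at 60.1, 65.2, 67.7 and 72.3 TPM. Mcm3 stood at 57.5, 60.9, 60.3 and 70.0 TPM. In all of these K97E replicate 2 was again the highest library. Mcm5 stood at 45.0, 49.6, 49.2 and 56.4 TPM. Mcm2 was the least abundant, at 38.0, 44.7, 48.2 and 47.5 TPM, and its groups did not overlap. The 6 subunits had log2 differences of 0.05 to 0.16 between K97E and wild type, with a median of 0.09. Without K97E replicate 2, Mcm3, Mcm5 and Mcm6 turned to -0.06, -0.03 and -0.12. Between neighbours in the order of levels, Mcm4, Mcm7 and Mcm3 overlapped in their ranges over the libraries, and so did Mcm5 and Mcm2.

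Cdt1, which with Cdc6 loads the MCM ring, had the largest difference among S-phase genes. Cdt1 (ENSMUSG00000006585, GRCm39 chr8:123294754-123300293, plus strand) stood at 25.1, 29.5, 33.9 and 34.8 TPM. Both K97E libraries were above both wild-type libraries, with means of 27.3 ± 3.1 TPM (SD, n = 2) for wild type and 34.3 ± 0.62 TPM (SD, n = 2) for K97E. The log2 difference was 0.27 (SE 0.11, 95% interval -0.01 to 0.55), with an unadjusted p of 0.0588 and an adjusted p of 0.965 in limma's moderated test. It ranged from 0.15 without wild-type replicate 1 to 0.38 without wild-type replicate 2. For Cdt1, the 2189-base transcript ENSMUST00000006760 held an estimated 38.6%, 50.6%, 62% and 85.7% of the TPM. Most of the rest was in the 2696-base ENSMUST00000212967. Summed TPM depends on this estimated split, and its part in the Cdt1 difference was not tested. Cdc6 itself stood at 8.66, 9.86, 9.03 and 10.4 TPM, with overlapping groups and a log2 difference of 0.0084. The GINS subunits Gins1 and Gins2, which turn the loaded ring into the active helicase, differed by -0.05 and -0.02. In all 10 origin genes K97E replicate 2 stood above K97E replicate 1 after scaling, against 49.9% of all tested genes, and the median of replicate 1 minus replicate 2 was -0.20 on the log2 scale.

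The 9 genes of DNA synthesis and nucleotide supply did not pass either. Pcna, the sliding clamp that holds polymerases on DNA, stood at 186, 203, 201 and 207 TPM. After scaling both replicates 1 stood below both replicates 2, the groups overlapped, and the log2 difference between groups was 0.01 (95% interval -0.24 to 0.26). Rfc4, a subunit of the clamp loader, stood at 19.2, 20.1, 22.9 and 23.3 TPM, with groups that did not overlap. Its log2 difference was 0.17 (SE 0.10), with an unadjusted p of 0.125 in limma's moderated test. Rfc4 shares exon sequence with Eif4a2 on the other strand, and reads of the pair can be credited to either. Rrm2, the small subunit of the ribonucleotide reductase that makes deoxynucleotides, stood at 94.2, 127, 140.1 and 122 TPM, lowest in wild-type replicate 1 and highest in K97E replicate 1. Its log2 difference of 0.20 turned to -0.02 without wild-type replicate 1. The large subunit Rrm1 had the same lowest and highest library. The polymerase subunits Pola1 and Pole, the primase Prim1, the flap nuclease Fen1 and the thymidylate synthase Tyms had log2 differences from -0.02 to 0.14. Fen1 stood at 43.5 TPM in wild-type replicate 1 and at 55.6 to 56.0 TPM in the other libraries, and 1909 bases of it overlap the predicted gene Gm10143 on the other strand.

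The 5 regulators of the G1/S boundary had small differences. E2f1, an activator of the S-phase wave, stood at 22.2, 25.7, 28.1 and 26.6 TPM, and both K97E libraries were above both wild-type libraries (log2 difference 0.13, SE 0.11). E2f8, a repressor that closes the wave, stood at 37.6, 32.6, 37.6 and 34.2 TPM, with replicates 1 above replicates 2 in each group and a log2 difference of -0.02. Uhrf1, which guides maintenance methylation of newly copied DNA, stood at 67.3, 70.3, 76.9 and 76.6 TPM. Its groups did not overlap, and K97E minus wild type came to 0.10 (SE 0.09). The E-type cyclins Ccne1 and Ccne2, partners of Cdk2 at S-phase entry, both differed by 0.01.

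Among the mitotic cyclins, Cdk1 and their regulators, 6 of 6 genes were higher in wild-type replicate 2 and K97E replicate 1 than in the other 2 libraries, against 22.1% of all tested genes. Ccnb1, the cyclin whose rise with Cdk1 starts mitosis, stood at 77.4, 107, 124 and 89.2 TPM. The distance between the replicates of a group, 0.46 with wild type and 0.41 with K97E on the log2 scale, was larger than the difference between groups, 0.15 (SE 0.20, 95% interval -0.35 to 0.66). Cdc20 (ENSMUSG00000006398, GRCm39 chr4:118290098-118294549, minus strand), the activator of the ubiquitin ligase that ends mitosis and a carrier of the CHR and CCAAT pair printed above, stood at 98.8, 133, 167 and 127 TPM. It had the largest group difference of all 49 genes, 0.29 (SE 0.18, 95% interval -0.17 to 0.74), with a limma adjusted p of 0.965, and its groups overlapped. Leaving out 1 wild-type library moved it to 0.07 (replicate 1) or 0.50 (replicate 2). Ccna2, the cyclin of S phase and G2, stood at 113, 123, 146 and 115 TPM. K97E replicate 1 was the high library and the groups overlapped. Cdk1 stood at 56.1, 80.1, 79.6 and 63.6 TPM, so its lowest and highest values were both in the wild-type group. Ccnb2 and Foxm1, the factor that activates many G2/M genes, differed by 0.0087 and -0.0027.

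The 8 mitotic kinases and checkpoint genes behaved likewise in 7 cases, against 22.1% of all tested genes. Plk1, a kinase of mitotic entry and spindle assembly, stood at 109, 125, 141 and 107 TPM, a log2 difference of 0.02 between groups. Aurkb and Birc5 encode the kinase and the survivin subunit of the chromosomal passenger complex, which corrects faulty attachments. Aurkb stood at 47.1, 66.7, 71.5 and 63.9 TPM and Birc5 at 143, 147, 166 and 139 TPM. For Aurkb wild-type replicate 1 was the library apart and its log2 difference of 0.21 turned to -0.04 without it. Bub1b, a checkpoint protein that holds back the ubiquitin ligase until chromosomes are attached, stood at 50.9, 57.4, 67.9 and 57.2 TPM, with a log2 difference of 0.15 (SE 0.11). The exception was Mad2l1, the checkpoint partner of Cdc20, at 101, 87.8, 97.6 and 99.1 TPM, which was lower in wild-type replicate 2 and K97E replicate 1 than in the other libraries. Aurka, Bub1 and Ttk had log2 differences of 0.06, 0.06 and 0.0055.

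Of 5 genes of kinetochores and chromosomes, 4 shared the order of the cyclins, against 22.1% of all tested genes. Top2a, the topoisomerase that untangles chromosomes, stood at 181, 213, 228 and 198 TPM. Mki67, the source of the Ki-67 proliferation antigen, stood at 101, 103, 118 and 90.8 TPM, and both ends of its range were K97E libraries. The log2 differences between groups were 0.06 for Top2a and -0.03 for Mki67, and Mki67 turned to 0.13 without K97E replicate 2. Cenpa, the histone of centromeres, stood at 59.6, 78.6, 92.2 and 73.0 TPM, with a log2 difference of 0.20 (SE 0.17) that was 0.0006 without wild-type replicate 1. Cenpe, the kinetochore motor, was the exception, at 58.1, 55.6, 58.6 and 49.6 TPM. After scaling both K97E libraries lay below both wild-type libraries, by -0.13 on the log2 scale (SE 0.10), at an adjusted p of 0.965 in limma. Cenpf stood at 29.3 TPM in K97E replicate 1 and at 20.2 to 22.1 TPM in the other libraries.

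The 6 spindle and cytokinesis genes were lowest in K97E replicate 2 in 5 cases, against 22.4% of all tested genes. Tpx2, which activates Aurora A on spindle microtubules, stood at 141, 134, 139 and 115 TPM. It had the lowest difference of the 49 genes, -0.18 (SE 0.10, 95% interval -0.45 to 0.08), and after scaling its K97E libraries lay below both wild-type libraries. Prc1, which cross-links the microtubules of the spindle midzone, stood at 118, 135, 153 and 113 TPM, and its groups overlapped widely. Its log2 difference was -0.0015, and it was 0.18 without K97E replicate 2 and -0.19 without K97E replicate 1. The spindle motor Kif11 stood at 45.4, 52.0, 60.6 and 49.7 TPM, with a log2 difference of 0.11. Kif20a, Kif23 and the microtubule binder Nusap1 differed by -0.02, -0.09 and -0.06.

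Across the 2 lists the estimated log2 differences between K97E and wild type lay between -0.185 and 0.29. Of 24 S-phase genes 0 passed and of 25 G2/M genes 0 passed in limma at an adjusted p under 0.05, where 0.00613% of all tested genes did, and 0 of 49 reached an unadjusted p under 0.05, where 3.68% of all tested genes did. Without wild-type replicate 2 the latter count was 7 (Aurkb, Cdc20, Cdt1, Cenpa, Fen1, Mcm2 and Rrm2), while 2373 of 16283 tested genes were under 0.05, and with TPM or FPKM as deposited it was 1, Cdt1. No other tool was run. Log2 differences were positive in 20 of 24 S-phase and 17 of 25 G2/M genes, against 49.5% of all tested genes. K97E libraries were both above the wild-type libraries in 7 S-phase and 0 G2/M genes, against 16.3% of tested genes, and both below in 0 S-phase and 2 G2/M genes, against 16.8%. The 7 were Mcm2, Cdt1, Pole, Rfc4, Rrm1, E2f1 and Uhrf1, and the 2 were Cenpe and Tpx2. A missed threshold does not show equal levels. The 95% intervals of all 49 genes lay between -0.45 and 0.74 on the log2 scale, so each left out a 2-fold change in either direction under the assumptions of the model.

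**Figure D3:**
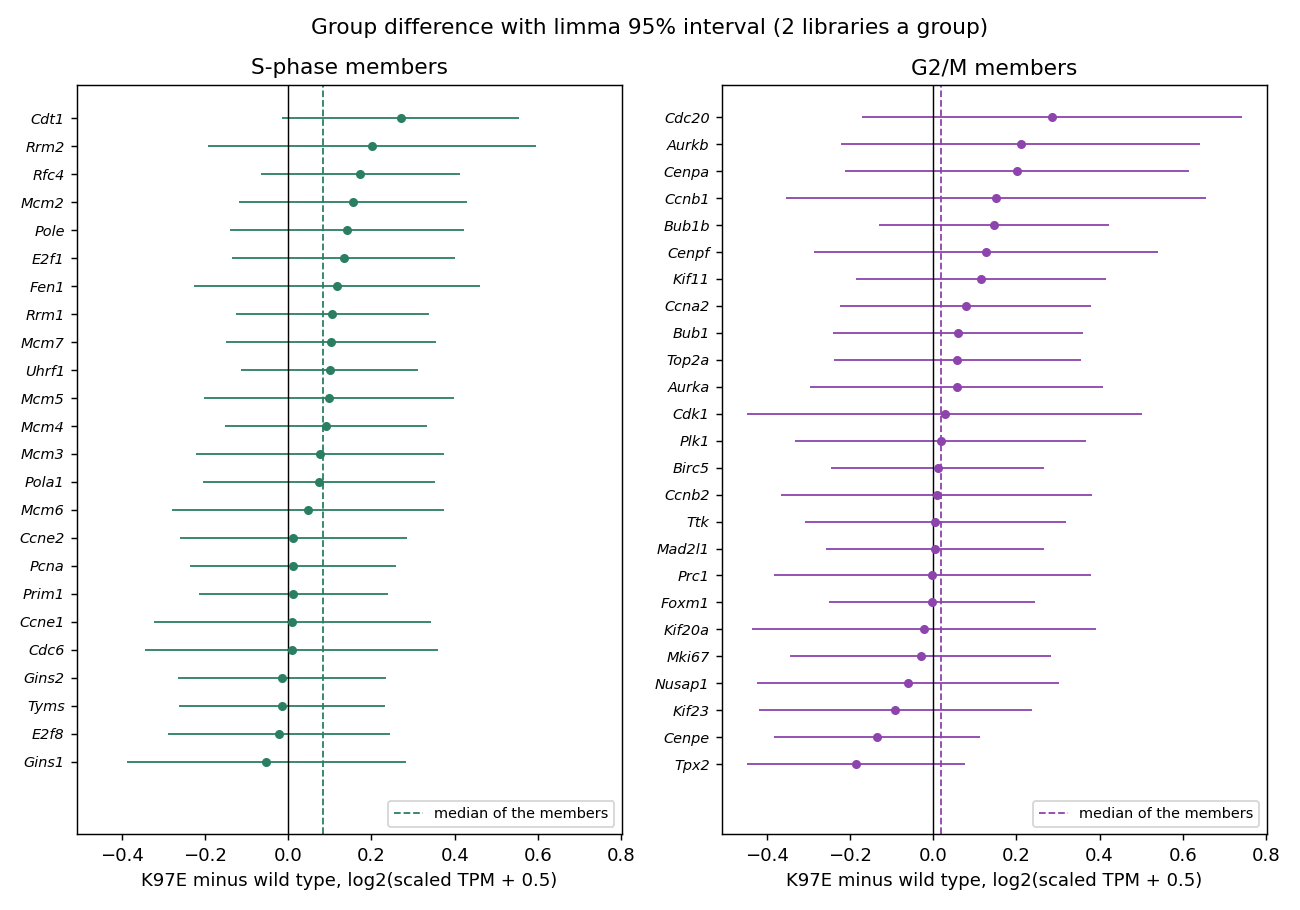
Difference between K97E and wild-type lamin A for each S-phase gene (left) and G2/M gene (right), on the scale of log2(scaled TPM + 0.5), with limma's 95% interval from 2 libraries a group and the median of each list as a dashed line. Every interval includes 0, and the medians lie at 0.08 and 0.02.

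Set against the spread between replicates, the G2/M genes differed more within the groups than between them. Wild-type replicate 2 stood above replicate 1 in 22 of 25 G2/M genes, against 50.3% of all tested genes, by a median of 0.17. K97E replicate 1 stood above replicate 2 in 24 of 25, against 50.1%, by a median of 0.27. The libraries deviated from the mean of all 4 by medians of -0.10, 0.07, 0.15 and -0.13. K97E replicate 1 was the highest library for 21 of 25 G2/M genes, against 23.6% of all tested genes, and K97E replicate 2 the lowest for 14, against 22.4%. Wild-type replicate 1 was the lowest library for 10 of 25, against 33.2%. The mean of the 2 K97E libraries lay near that of the wild-type libraries. The median difference between groups was accordingly -0.10 without K97E replicate 1 and 0.18 without K97E replicate 2, and -0.06 and 0.11 without wild-type replicates 1 and 2.

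For S-phase genes wild-type replicate 2 again stood above replicate 1, in 18 of 24 genes, against 50.3% of all tested genes, by a median of 0.10. But K97E replicate 2 stood above replicate 1 in 20 of 24, against 49.9%. The median of K97E replicate 1 minus replicate 2 was -0.09. Median deviations of the libraries were -0.09, 0.01, -0.01 and 0.09. Wild-type replicate 1 was the lowest library for 15 of 24 S-phase genes, against 33.2% of all tested genes, and K97E replicate 2 the highest for 13, against 21.8%. The exceptions in the K97E pair were Rrm1, Rrm2, E2f1 and E2f8, which were higher in K97E replicate 1, as the G2/M genes were. Without K97E replicate 2 the median S-phase difference between groups was 0.0061, and without K97E replicate 1 it was 0.14.

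**Figure D4:**
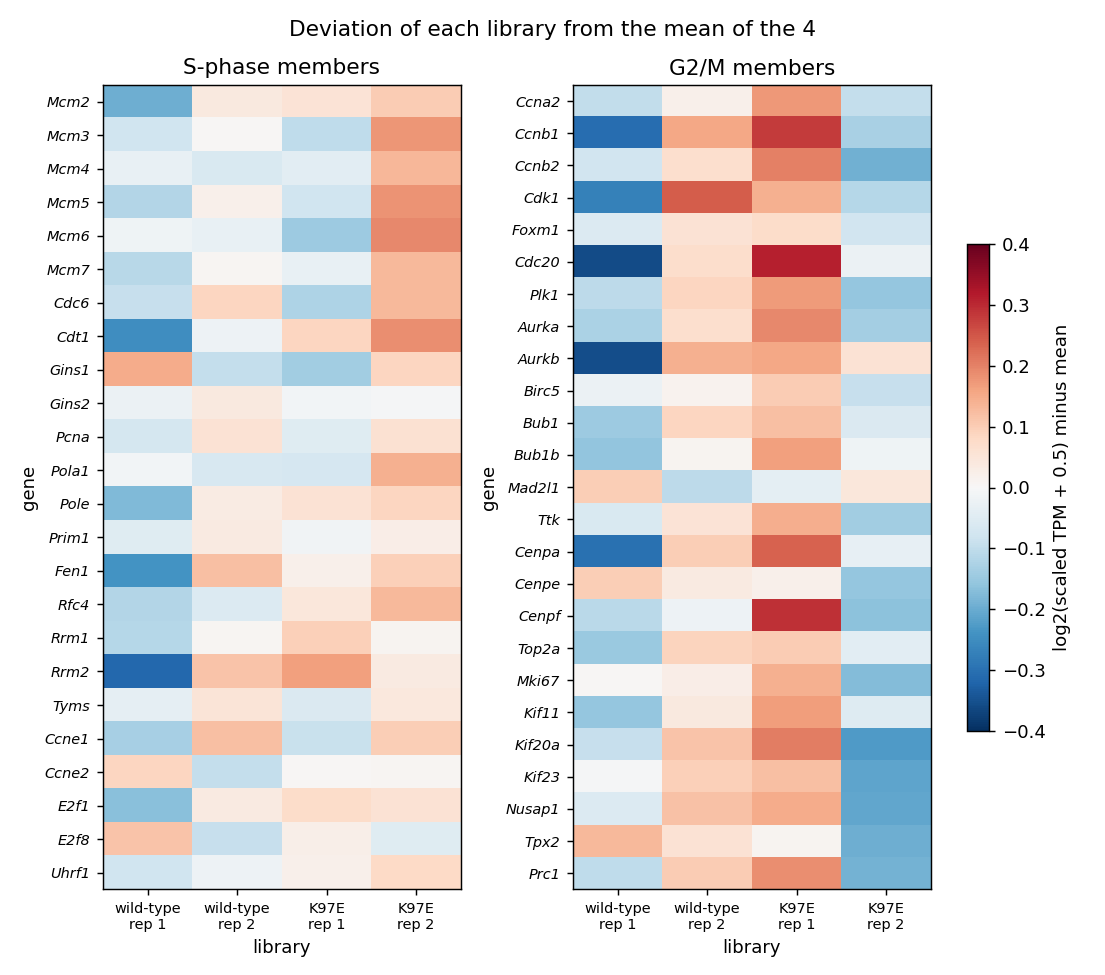
Deviation of each library (columns) from the mean of the 4 libraries for each S-phase gene (left) and G2/M gene (right), in units of log2(scaled TPM + 0.5), red above and blue below. Wild-type replicate 2 and K97E replicate 1 stand above the other libraries in 22 of 25 G2/M genes, all but Mad2l1, Cenpe and Tpx2. The same holds for 22.1% of all tested genes. Mcm2 to Mcm7 are reddest in K97E replicate 2.

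The 4 libraries can be paired in 3 ways, and the lists were compared under each, as a description with no test. Between K97E and wild type the medians were 0.08 for S-phase and 0.02 for G2/M genes. Between replicates 2 and replicates 1 they were 0.11 and -0.07, and 10 S-phase and 0 G2/M genes had both replicates 2 above both replicates 1, against 11.7% of all tested genes. Between wild-type replicate 2 with K97E replicate 1 and the remaining libraries they were -0.0015 and 0.21. In this last pairing 22 of 25 G2/M genes and 1 of 24 S-phase genes were higher without overlap, against 22.1% of all tested genes, and 1 and 5 were lower, against 20.8%. Medians over all tested genes were -0.0017, 0.0016 and 0.0022. The labelled comparison was therefore not the pairing with the largest difference for either list. S-phase minus G2/M medians were 0.06, 0.17 and -0.22 for the pairings in this order, and 0.01, -0.06, -0.17 and 0.22 for the single libraries. Estimated reads were 89600000, 106400000, 115600000 and 107800000, so the library with the highest G2/M level was also the deepest, and the library with the lowest S-phase level the shallowest. Leukocyte markers, of which 3 of 8 were at 0 in all libraries, summed to 5.08, 7.86, 7.49 and 5.01 TPM, so they too were higher in wild-type replicate 2 and K97E replicate 1. The part of depth and of these markers in the differences was not tested.

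The same orders were looked for in other genes of the pathway, from lists compiled with earlier results of these data known. Of 50 other mitosis genes 37 were higher in wild-type replicate 2 and K97E replicate 1 without overlap, and of 40 other replication genes 8 were, against 22.1% of all tested genes, so the replication genes were near that share. The median differences between these libraries and the rest were 0.23 and 0.01. K97E replicate 2 stood above replicate 1 in 25 of the 40 replication genes and in 3 of the 50 mitosis genes, against 49.9% of all tested genes. Between K97E and wild type 0 of 50 mitosis, 0 of 40 replication and 0 of 25 tested G1 and transcriptional regulators passed in limma, against 0.00613% of all tested genes, with medians of 0.05, 0.0007 and 0.07. Pttg1, securin, which guards sister cohesion until Cdc20 acts, stood at 239.8, 278, 235 and 203 TPM. Its log2 difference was -0.30 (SE 0.12), with an unadjusted p of 0.0459 and an adjusted p of 0.965 in limma, and both K97E libraries lay below both wild-type libraries. Fam83d, a spindle protein, stood at 13.5, 19.8, 24.9 and 19.2 TPM. Ccnd1, cyclin D1, which starts the cycle in response to growth factors, stood at 189, 231, 285 and 225 TPM, in the order of the G2/M genes. Its list as a whole did not share that order. Of the 25 tested G1 and transcriptional regulators 7 had it without overlap, against 22.1% of all tested genes. The reverse order was seen in 5, against 20.8%. Of the replication genes, Mcm10, which helps to fire origins, stood at 23.1, 23.9, 22.4 and 20.4 TPM, a log2 difference of -0.19. Pold1, the catalytic subunit of polymerase delta, stood at 16.2, 18.9, 21.5 and 20.5 TPM, a log2 difference of 0.20. Lin9, a MuvB subunit, stood at 12.9, 13.0, 12 and 10.9 TPM, a log2 difference of -0.23. None of these passed the test.

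**Figure D5:**
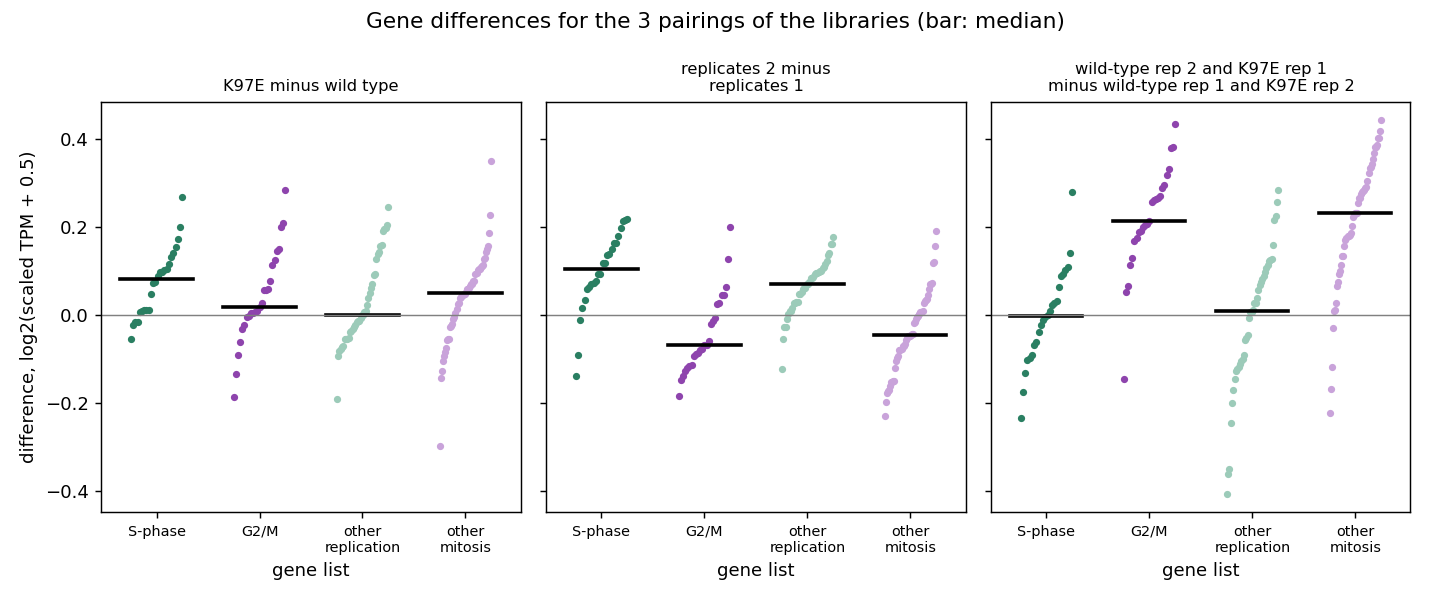
Differences of single genes (points) for the 3 pairings of the libraries, on the scale of log2(scaled TPM + 0.5), for S-phase genes, G2/M genes, 40 other replication genes and 50 other mitosis genes, with medians as bars. The G2/M and other mitosis genes lie highest in the right panel, with medians of 0.21 and 0.23, and lower in the left panel, with medians of 0.02 and 0.05.

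The G2/M genes with a CHR match had a median difference of 0.26 between wild-type replicate 2 with K97E replicate 1 and the other libraries (15 genes), and those with a window but no match 0.12 (5 genes). The largest value of the 25 genes was that of Ccnb1, 0.43, which is among those without a match. S-phase genes with and without an E2F match had medians of -0.05 (8 genes) and 0.03 (11 genes).

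StringTie estimates by a model how the reads of a gene are shared among its transcripts. In 22 of the 49 genes the leading transcript held more than 90% of the TPM in every library. Of the 12 G2/M genes among them 11 were higher in wild-type replicate 2 and K97E replicate 1 without overlap, against 22.1% of all tested genes, with a median difference of 0.20. Mki67 (ENSMUST00000033310), Plk1 (ENSMUST00000033154) and Ccnb2 (ENSMUST00000034742) had over 99% in a single transcript. Elsewhere shares moved between libraries. For Cdt1, the 10-exon transcript ENSMUST00000006760 held 38.6%, 50.6%, 62% and 85.7%, and ENSMUST00000212967 59.3%, 46.6%, 35.8% and 12.6%. For Aurkb, ENSMUST00000021277 held 84.3% in wild-type replicate 1 and 51.1% to 58.9% in the other libraries. These shares are estimates with no test. Exons of 15 of the 49 genes overlap exons of another gene, 7 of them S-phase and 8 G2/M genes. The remaining 17 S-phase and 17 G2/M genes had median differences between groups of 0.08 and 0.03.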

How the data were processed

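RNA of 4 libraries was sequenced as paired reads of 100 bases from a stranded kit, per the labels' protocols. The build GRCm39 is taken from the submitters' processing notes, which list FastQC, HISAT2, SAMtools, StringTie and DESeq2. Transcripts of Ensembl release 104 were quantified with StringTie 2.1.7 without a strand option, per the file headers, so sense and antisense reads of overlapping genes cannot be told apart. The authors deposited coverage, FPKM and TPM for 142434 transcripts a library and no counts, so depth was taken from coverage times length divided by read length, and no counting interval was computed.

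TPM was summed per gene, scaled by median-of-ratios (factors 0.98, 0.98, 1.04 and 1.00), and log2-transformed with a pseudocount of 0.5. Fold changes are on that scale, and understate those of low genes. The 16304 genes whose mean TPM reached 0.5 were tested with limma 3.58.1 in R 4.3.3 (lmFit, eBayes with trend, 5.54 total degrees of freedom). Tests were two-sided, and p-values were adjusted by Benjamini-Hochberg over all tested genes. TPM values, means and SDs in the text are as deposited. Orders and overlaps between libraries, and differences, use scaled values. An exact permutation test of 2 against 2 could not go below 0.333 and was not used.

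The members and the lists were chosen with earlier results of these data known. Genes given with values in every library were, in each of 7 roles, the 2 most abundant and the 2 with the smallest unadjusted p, all of Mcm2 to Mcm7, and from each of 3 other pathway lists the 2 with the smallest p at a mean TPM of at least 1. Values of other members were added where a library stood apart, after they were seen. Of 164 symbols in 9 other lists 6 did not match. Promoters came from RefSeq of another build, GRCm38.p6, matched by symbol, while gene positions are as in the files (GRCm39). The fit was repeated with changed pseudocount, filter, scaling and eBayes settings, on FPKM, with a block for the replicate number, and leaving out 1 library at a time. The labels do not say that a number marks a shared culture or day. Python 3.11.15, pandas 2.3.3 and matplotlib 3.10.9 were used.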

Additional observations from a re-analysis of the deposited data

How the results depend on the processing

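No S-phase or G2/M gene was called under any of 15 alternatives, and the lowest limma adjusted p of a member under them was 0.28. The count of called genes, 1 of 16304, moved to 2 with TPM as deposited and with eBayes without trend and to 0 with no filter (1389 genes at an unadjusted p under 0.05). It ranged from 0 to 18 with a library left out, with 18 without wild-type replicate 1, 6 without wild-type replicate 2 and 0 without either K97E library. With the replicate number as a block (replicate block) 0 genes were called, and 406 had an unadjusted p under 0.05. Same-numbered libraries deviated in opposite directions (r = -0.137 across genes, which are not independent replicates), and with crossed numbers, a setting chosen after seeing the data, 30 genes were called. The S-phase median ranged from 0.0061 to 0.14 with a library left out and S-phase minus G2/M from -0.17 to 0.24, with the lowest value of each without K97E replicate 2. TPM as deposited shifts the median of all tested genes by 0.05, and gave medians of 0.14 for S-phase and 0.08 for G2/M genes. In it E2f8 turned to 0.0348, Mki67 to 0.0275 and Prc1 to 0.0564. Prc1 also turned to 0.0296 with quantile normalization and 0.027 with FPKM, and E2f8 to 0.0056 with FPKM. Of 33 named genes 14 changed sign under an alternative. With a library left out, the ranges of those that did were -0.0561 to 0.0767 for Pcna, -0.0174 to 0.41 for Rrm2, -0.13 to 0.0773 for E2f8, -0.0818 to 0.38 for Ccnb1, -0.14 to 0.18 for Plk1, -0.0415 to 0.46 for Aurkb, -0.0869 to 0.11 for Birc5, -0.0633 to 0.18 for Top2a, -0.19 to 0.18 for Prc1, -0.0573 to 0.21 for Ccna2, -0.0647 to 0.21 for Mcm3, -0.0325 to 0.23 for Mcm5, -0.12 to 0.22 for Mcm6 and -0.19 to 0.13 for Mki67. Cdt1 kept its direction, from 0.15 to 0.38. The cause was not tested. With a library left out the lone sample of its group is assumed to vary like the others.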
